A study of Mus musculus with 12 samples.

Results

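Epithelial cells hold to each other through tight junctions, adherens junctions, desmosomes and gap junctions, and the genes that build these contacts were followed here in thymic epithelium. The members were the genes whose symbols name a claudin (Cldn), a classical or related cadherin (Cdh), a desmocollin or desmoglein (Dsc, Dsg), a plakophilin (Pkp), a zonula occludens scaffold (Tjp) or a beta connexin (Gjb), together with Epcam, Ocln, Jup and Dsp. Of 31332 genes in the count table, 75 met that rule, and 63 of them had enough counts to be tested. They divide into 30 tight junction genes, 23 cadherins, 15 desmosome genes, 6 beta connexins and Epcam. The 12 members that were not tested were Cdh5, Cdh18, Cdh19, Cdh20, Cldn14, Cldn16, Cldn17, Cldn20, Cldn21, Cldn22, Cldn26 and Cldn27, and the highest of their values in any library was 2.28 CPM (counts relative to the library total), for Cdh5 in Cre mTEC.

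RNA was counted in 12 libraries from cortical (cTEC) and medullary (mTEC) thymic epithelial cells, sorted from thymuses of C57BL6/J mice 2 months old. The 4 groups held 3 libraries each: Cre mTEC (libraries 4 to 6), control mTEC (libraries 1 to 3), Cre cTEC (libraries 10 to 12) and control cTEC (libraries 7 to 9). Every animal carried floxed LXRalpha and floxed LXRbeta, the liver X receptor genes Nr1h3 and Nr1h2, and the Cre groups carried in addition a Cre recombinase driven by FoxN1, which is active in thymic epithelium of cortex and medulla alike. The design asks what the receptors do in each epithelial type. The labels give no group with Cre and without floxed alleles, so Cre itself and loss of the receptors cannot be told apart.

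Claudins are the membrane proteins that seal the space between epithelial cells or open selective pores in it, and occludin and the Tjp scaffolds complete the tight junction. Classical cadherins bind neighbouring cells at adherens junctions, while desmogleins and desmocollins do so at desmosomes, where plakoglobin, plakophilins and desmoplakin tie them to keratin filaments. Connexins form channels between cells. In the thymus, claudin-3 and claudin-4 are known from the medullary lineage, and EPCAM is a general marker of thymic epithelium.

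Total counts were 4804697 to 11159013 per library, and levels are CPM, which set a gene's counts against the total of its library after TMM scaling. Within groups, libraries correlated at 0.9665 to 0.9899 across genes (log CPM), and the lowest value belonged to Cre cTEC libraries 10 and 11, of which library 11 had the fewest counts. Nr1h2 averaged 79.2 ± 14.7 CPM in Cre mTEC and 122 ± 11.4 CPM in control mTEC (SD, n = 3 each), and 115 ± 11.1 CPM in Cre cTEC and 173 ± 17.5 CPM in control cTEC (SD, n = 3 each). It was lower in the Cre groups in mTEC (log2 fold change -0.63, adjusted p = 0.0158) and in cTEC (-0.58, adjusted p = 0.00566). Nr1h3 was not called in mTEC (0.28, adjusted p = 0.67) or in cTEC (0.13, adjusted p = 0.869). The summed level of 6 cTEC markers was 1266 to 1527 CPM in the mTEC libraries of both genotypes and 5462 to 14220 CPM in the cTEC libraries of both genotypes, and that of 7 mTEC markers was 5755 to 7128 CPM in mTEC and 1270 to 2613 CPM in cTEC, so the markers matched the cell type labels. Among the mTEC markers Ccl21a was at 0 in 10 libraries. Nothing in the labels ties libraries to separate animals, so p-values measure the spread between these libraries only.

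Junction genes differed mainly between the medullary and the cortical epithelium. In control mTEC against control cTEC, 47 of 63 members (74.6%) were called at an adjusted p under 0.05 by edgeR's quasi-likelihood test, 35 higher and 12 lower in mTEC, where 59.2% of all 17268 genes tested were called, 29.3% higher and 30% lower. The share of members higher in mTEC (55.6%) was above the background share, and the share lower (19%) was below it. The median log2 fold change of the tested members was 0.77, and that of all genes tested was -0.05. In Cre mTEC against Cre cTEC, 40 members (63.5%) were called, 30 higher and 10 lower, against a background of 49.6%, 25.1% higher and 24.5% lower. Of the 35 members higher in control mTEC, 29 were also higher in Cre mTEC, and of the 12 lower ones 8 were also lower, and no member was called in opposite directions in the 2 genotypes. The groups did not overlap for 41 of 63 members between Cre mTEC and Cre cTEC, against 53.1% of all genes. Between control mTEC and control cTEC they did not overlap for 52 of 63, against 69.3% of all genes. In bulk RNA, fewer cells of a type and less RNA of a gene per cell cannot be told apart.

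Gjb2, Gjb6 and Epcam were higher in control mTEC. Of the tested tight junction genes, 12 were higher, 5 lower and 5 not called, and of the desmosome genes 9 were higher, 1 was lower and 5 were not called. Cadherins split almost evenly, with 7 higher, 6 lower and 6 not called. The first principal component of the members alone held 84.82% of their variance and separated the 6 mTEC libraries from the 6 cTEC libraries. For the 2000 most variable genes the first component held 88.66%.

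**Figure D1:**
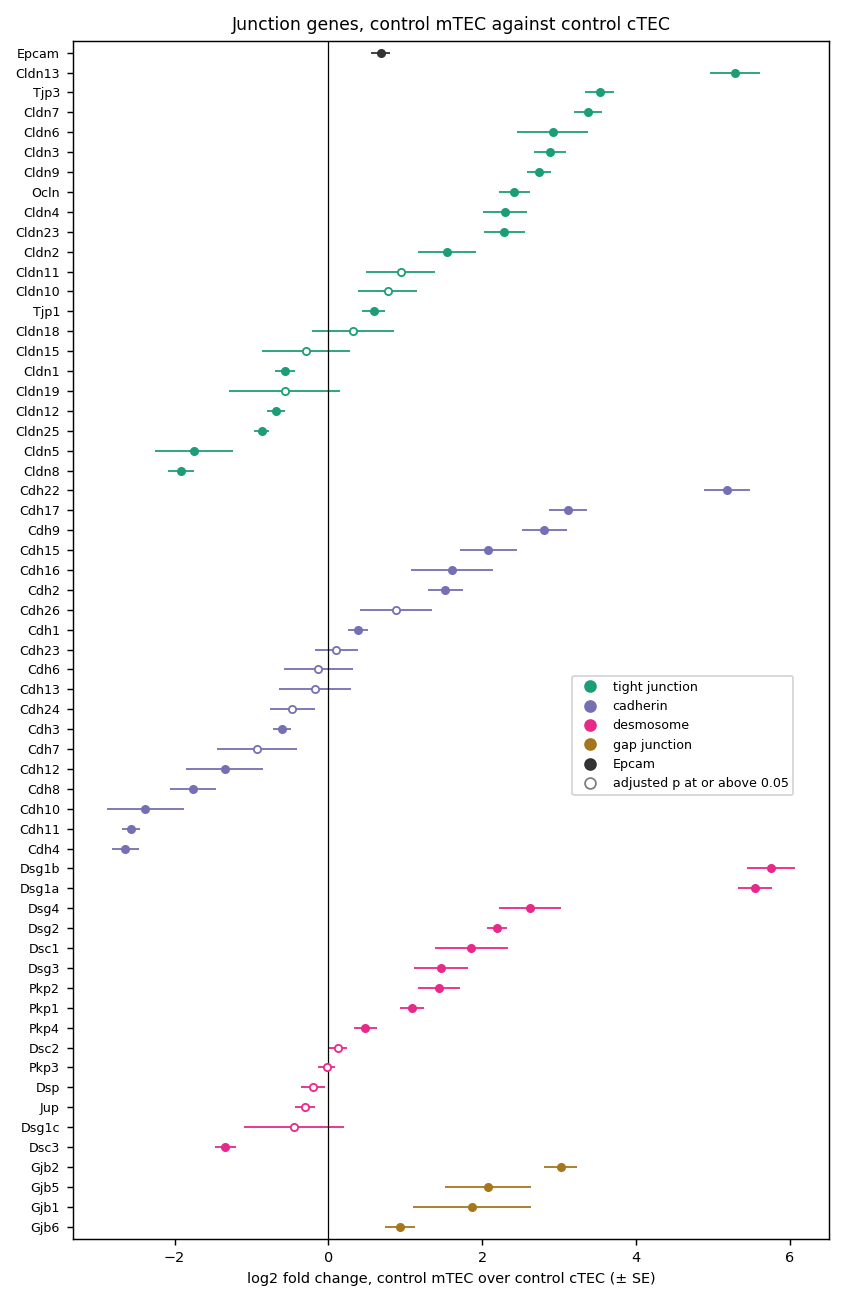
Log2 fold change (± SE) of tested junction genes in control mTEC over control cTEC, by family and in order of size, with 3 libraries per group; filled points were called at an adjusted p under 0.05. The beta connexins drawn lie to the right of 0, desmosome genes mostly so, and cadherins on both sides.

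Cldn7, Cldn3 and Cldn4, which are known as sealing claudins of simple epithelia, were higher in control mTEC than in control cTEC. Cldn7 had 62.5, 62.3 and 92.2 CPM in Cre mTEC and 97.8, 99.5 and 104 CPM in control mTEC, and 4.47, 7.19 and 5.41 CPM in Cre cTEC and 10.6, 11.3 and 7.42 CPM in control cTEC. Every mTEC library was above every cTEC library, and within each cell type the 3 Cre libraries were below the 3 control libraries. The fold change of control mTEC over control cTEC was 10.4-fold (3.38 ± 0.18 (SE), adjusted p = 9.72e-12). Cldn3 had 34.2, 40.4 and 62 CPM in Cre mTEC and 53.9, 59.4 and 66.4 CPM in control mTEC, and 5.59, 3.89 and 4.53 CPM in Cre cTEC and 7.26, 10.1 and 6.99 CPM in control cTEC. Cldn4 had 43.8, 31.5 and 45.8 CPM in Cre mTEC and 57.9, 54.3 and 61 CPM in control mTEC, and 5.03, 7.19 and 3.51 CPM in Cre cTEC and 7.61, 21.7 and 6.14 CPM in control cTEC. Cldn3 and Cldn4 stood higher in control mTEC by 7.38-fold (log2 2.88 ± 0.21 (SE), adjusted p = 6.56e-10) and by 4.94-fold (log2 2.30 ± 0.29 (SE), adjusted p = 1.48e-06). No mTEC library overlapped a cTEC library for either gene, although control cTEC library 8 carried more Cldn4 than the other cTEC libraries.

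Cldn13, a claudin of rodents, and Cldn9, a relative of Cldn6, were also medullary. Cldn13 had 20.9, 21.8 and 21.8 CPM in control mTEC, against 0.519, 0.336 and 0.714 CPM in control cTEC (log2 5.29 ± 0.33 (SE), adjusted p = 7.19e-11). Cldn9 had 44.9, 51.5 and 36.6 CPM in control mTEC, against 6.05, 6.05 and 7.71 CPM in control cTEC (log2 2.74 ± 0.16 (SE), adjusted p = 4.6e-11). The cTEC values of Cldn13 rest on a few counts per library, so its fold is less certain than that of Cldn9. Cldn2, Cldn6 and Cldn23 were higher as well, by 1.54 to 2.92 on the log2 scale. Ocln, which encodes occludin, had 53.5, 42.8 and 52.9 CPM in control mTEC, against 10.4, 10.3 and 7.42 CPM in control cTEC (log2 2.42 ± 0.20 (SE), adjusted p = 4.55e-09).

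A smaller group of claudins was lower in control mTEC than in control cTEC. Cldn8, a sealing claudin of the distal nephron, had 8.08, 10.3 and 9.02 CPM in control mTEC, against 34.1, 35.8 and 33.8 CPM in control cTEC (log2 -1.92 ± 0.17 (SE), adjusted p = 1.03e-08). Cldn1, the main barrier claudin of the epidermis, had 186, 168 and 169.9 CPM in control mTEC, against 320.2, 217 and 236 CPM in control cTEC (log2 -0.56 ± 0.13 (SE), adjusted p = 0.00135). Cldn1 was not called between Cre mTEC and Cre cTEC (log2 0.08, adjusted p = 0.644). Cldn12 was also lower in control mTEC (log2 -0.68 ± 0.12 (SE), adjusted p = 0.000126). The symbol Cldn25 (log2 -0.87 ± 0.10 (SE), adjusted p = 5.77e-07) is a retired name that RefSeq now gives to other genes, so it is counted by the rule and given no role.

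The scaffolds Tjp3 and Tjp1 were both higher in control mTEC, in unequal measure. Tjp3 had 55.5, 70.6 and 92.6 CPM in Cre mTEC and 106, 94.6 and 106 CPM in control mTEC, and 4.47, 7.58 and 5.85 CPM in Cre cTEC and 7.26, 10.3 and 8.99 CPM in control cTEC, an 11.5-fold difference between the control groups (log2 3.53 ± 0.19 (SE), adjusted p = 9.72e-12). Tjp1 differed by 1.5-fold (log2 0.59 ± 0.15 (SE), adjusted p = 0.00263). Tjp3 was thus mainly a medullary transcript, while Tjp1 was carried by both cell types.

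Levels of different genes can be set beside each other only per kilobase of transcript. On that scale Cldn7 led the claudins of medullary cells, at 54.2 CPM per kilobase in Cre mTEC and 75.4 in control mTEC, followed by Cldn3 and Cldn1. In cortical cells Cldn1 led, at 34.1 CPM per kilobase in Cre cTEC and 62.2 in control cTEC, where it made 39.2% and 50.8% of the summed claudin level, followed by Cldn8 and Cldn12. The sum over the 17 tested claudins with a known length was 218 CPM per kilobase in Cre mTEC and 276 in control mTEC, and 87.0 in Cre cTEC and 122 in control cTEC. With merged exons in place of the longest transcript the first 3 claudins of each group kept their order.

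**Figure D2:**
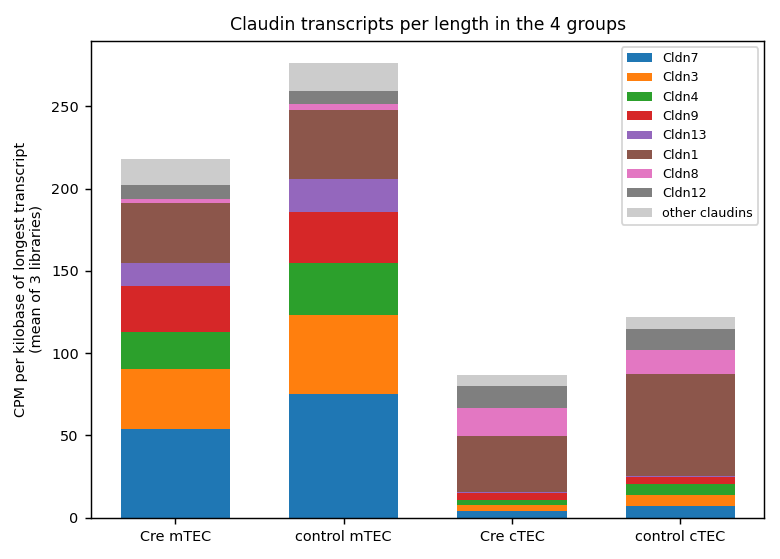
Composition of the summed claudin level (CPM per kilobase of the longest transcript, mean of 3 libraries) in the 4 groups, with the leading claudins coloured. Cldn7, Cldn3 and Cldn1 make the larger part of the mTEC bars, and Cldn1, Cldn8 and Cldn12 that of the cTEC bars.

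Cldn3 and Cldn4 are neighbours on chromosome 5, with no other protein-coding gene between them in the GRCm38 annotation. Both were higher in control mTEC than in control cTEC. By genotype both were called lower only in the average over cell types, and those calls rested on single libraries, as given below. Other neighbours went opposite ways between the control groups, such as Cdh9 (log2 2.81) and Cdh10 (log2 -2.38). The promoters of Cldn3 and Cldn4 are shown with those of Cldn7, which RefSeq lists with 2 starts, and of Cldn1. These 4 claudins were called both between the control cell types and by genotype in the average over cell types. Each runs from 250 bases before to 50 after a RefSeq start (GRCm38.p6), 5′ to 3′ on the gene's strand, with the E-box CAGGTG, or CACCTG on the other strand, in capitals. This E-box is the motif that the Snail and Zeb repressors of epithelial genes are known to bind.
Cldn3 (chr5:134985964-134986263, plus strand): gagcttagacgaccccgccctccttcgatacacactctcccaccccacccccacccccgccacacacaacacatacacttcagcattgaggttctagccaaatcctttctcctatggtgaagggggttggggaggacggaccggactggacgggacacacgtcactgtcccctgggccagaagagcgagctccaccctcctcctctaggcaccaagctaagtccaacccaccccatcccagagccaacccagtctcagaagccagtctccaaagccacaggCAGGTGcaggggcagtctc
Cldn4 (chr5:134946885-134947184, minus strand): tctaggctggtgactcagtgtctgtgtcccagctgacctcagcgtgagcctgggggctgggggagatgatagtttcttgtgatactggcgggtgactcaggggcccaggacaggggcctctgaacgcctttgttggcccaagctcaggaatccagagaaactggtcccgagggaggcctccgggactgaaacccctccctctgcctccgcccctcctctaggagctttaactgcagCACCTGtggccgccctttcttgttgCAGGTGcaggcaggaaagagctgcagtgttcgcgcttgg
Cldn7, first start (chr11:69964529-69964828, plus strand): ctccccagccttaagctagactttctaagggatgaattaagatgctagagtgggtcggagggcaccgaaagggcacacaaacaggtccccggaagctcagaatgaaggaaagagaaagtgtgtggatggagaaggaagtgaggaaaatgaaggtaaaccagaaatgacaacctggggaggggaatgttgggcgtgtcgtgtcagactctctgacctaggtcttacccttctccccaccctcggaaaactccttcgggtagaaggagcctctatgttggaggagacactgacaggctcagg
Cldn7, second start (chr11:69965171-69965470, plus strand): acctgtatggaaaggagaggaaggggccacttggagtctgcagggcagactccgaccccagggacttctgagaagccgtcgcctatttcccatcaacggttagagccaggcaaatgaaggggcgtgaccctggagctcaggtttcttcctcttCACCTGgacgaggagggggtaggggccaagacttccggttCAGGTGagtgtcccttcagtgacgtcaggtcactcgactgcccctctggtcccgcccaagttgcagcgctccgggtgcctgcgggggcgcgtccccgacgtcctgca
Cldn1 (chr16:26371790-26372089, minus strand): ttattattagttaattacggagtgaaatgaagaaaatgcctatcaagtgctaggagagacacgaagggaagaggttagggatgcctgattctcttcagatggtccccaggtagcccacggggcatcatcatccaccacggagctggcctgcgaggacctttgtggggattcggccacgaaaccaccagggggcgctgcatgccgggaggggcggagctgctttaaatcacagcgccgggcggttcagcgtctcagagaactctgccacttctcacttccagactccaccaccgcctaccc

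The window of Cldn3 holds 1 such E-box, that of Cldn4 holds 2, the second window of Cldn7 holds 2, and those of the first Cldn7 start and of Cldn1 hold 0. Of all 32851 mouse promoters of this length 20.2% hold the motif, and of the 58 promoters listed for 42 members 31.0% do. The GC box GGGCGG (or CCGCCC) is in 46.6% of the member promoters and 35.7% of all promoters, whose median GC content is 57.2% and 52.7%. The grainyhead motif AACCGGTT is in 0 member promoters and 0.146% of all, and the LXR element, AGGTCA repeated on the same strand after 4 bases of any kind, is in 0 member promoters and 0.0152% of all. Both strands were searched, no motif contains another in its fixed letters, matches of different motifs may overlap, and a match describes letters, not a bound site.

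Cadherins differed in kind between the cell types. Cdh1 had 1223, 1619 and 1322 CPM in Cre mTEC and 1472, 1253 and 1199 CPM in control mTEC, and 1333, 1125 and 1193 CPM in Cre cTEC and 1066, 925 and 996 CPM in control cTEC. Cdh1 encodes E-cadherin, the epithelial cadherin, and led its family per kilobase in every group, from 56.9% of the summed cadherin level in control cTEC to 74.2% in control mTEC. It was modestly higher in control mTEC (log2 0.39 ± 0.13 (SE), adjusted p = 0.0172), a call lost without control mTEC library 1 (adjusted p = 0.0958). Cdh3, P-cadherin of basal epithelium, went the other way (log2 -0.60 ± 0.12 (SE), adjusted p = 0.000312). The ratio of Cdh1 to Cdh3 counts was 4.83 to 6.86 in Cre mTEC and 6.49 to 6.60 in control mTEC, and 3.88 to 4.16 in Cre cTEC and 2.78 to 3.79 in control cTEC, so every mTEC library had a higher ratio than every cTEC library.

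Cdh4, R-cadherin, and Cdh11, a cadherin better known from mesenchyme, were lower in control mTEC as well. Cdh4 had 39.7, 42.3 and 35.2 CPM in Cre mTEC and 36.8, 28.7 and 38.7 CPM in control mTEC, and 453, 244 and 338 CPM in Cre cTEC and 201, 217 and 232 CPM in control cTEC. Cdh11 had 58.9, 70.3 and 59.6 CPM in Cre mTEC and 52.8, 48.8 and 47.8 CPM in control mTEC, and 193, 219 and 211 CPM in Cre cTEC and 248, 336 and 303 CPM in control cTEC. Both were several-fold lower in control mTEC, Cdh4 by 6.25-fold (log2 -2.64 ± 0.18 (SE), adjusted p = 2.55e-10) and Cdh11 by 5.93-fold (log2 -2.57 ± 0.12 (SE), adjusted p = 2.64e-12). Cdh8, a type II cadherin studied in the brain and a neighbour of Cdh11 on chromosome 8, was lower too (log2 -1.76 ± 0.30 (SE), adjusted p = 5.83e-05). Cdh10 (log2 -2.38 ± 0.50 (SE), adjusted p = 0.000492) and Cdh12 (log2 -1.35 ± 0.50 (SE), adjusted p = 0.0277), which rest on low counts, were the remaining cadherins lower in control mTEC. Fibroblast markers summed to 155 to 179.8 CPM in control mTEC and 200.4 to 254 CPM in control cTEC, but single markers went opposite ways. Pdgfrb (log2 2.81) and Col1a1 (log2 1.98) were higher in control mTEC. Lum (log2 -2), Col1a2 (log2 -1.73) and Col3a1 (log2 -0.75) were lower, and Pdgfra was not called. The part of these markers in the Cdh11 difference was not tested.

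Cdh22, Cdh17, Cdh9 and Cdh2 were higher in control mTEC. Cdh22, a type II cadherin, had 37.5, 35.5 and 39.5 CPM in control mTEC, against 0.346, 1.34 and 1.28 CPM in control cTEC (log2 5.19 ± 0.30 (SE), adjusted p = 2.19e-11). Cdh17, the cadherin of liver and intestine, had 55, 56.3 and 57.9 CPM in control mTEC, against 6.05, 6.89 and 6.42 CPM in control cTEC (log2 3.12 ± 0.25 (SE), adjusted p = 2.62e-09). Cdh9 was higher by 7.02-fold (log2 2.81 ± 0.29 (SE), adjusted p = 1.03e-07). The neural cadherin gene Cdh2 had 21, 19 and 22.7 CPM in control mTEC, against 10.4, 5.04 and 6.57 CPM in control cTEC (log2 1.52 ± 0.23 (SE), adjusted p = 1.68e-05). For all 4 genes no control mTEC library overlapped a control cTEC library.

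Desmosomal cadherins differed between the cell types in opposite directions. Dsg2 had 676, 699.6 and 767 CPM in Cre mTEC and 733, 598 and 622 CPM in control mTEC, and 270, 218 and 219 CPM in Cre cTEC and 147, 147 and 134 CPM in control cTEC. Dsc3 had 581, 787 and 598 CPM in Cre mTEC and 523, 434 and 428 CPM in control mTEC, and 1332, 1094 and 1171 CPM in Cre cTEC and 1190, 1128 and 1199 CPM in control cTEC. Dsg2, the desmoglein of simple epithelia, was 4.57-fold higher in control mTEC (log2 2.19 ± 0.13 (SE), adjusted p = 2.3e-11), and Dsc3, a desmocollin of basal layers of stratified epithelium, was 2.54-fold lower (log2 -1.34 ± 0.14 (SE), adjusted p = 9.32e-08). Dsc2 had 417, 396 and 376 CPM in control mTEC and 358, 374 and 363 CPM in control cTEC, and was not called (log2 0.12 ± 0.12 (SE), adjusted p = 0.399). Per kilobase Dsc2 made 44.1% of the desmocollin level in Cre mTEC and 49.4% in control mTEC, and 29.3% in Cre cTEC and 26.4% in control cTEC, and Dsc3 made nearly all of the rest.

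Dsg1a and Dsg1b, desmogleins of the upper layers of stratified epithelium, showed the widest folds of all members between control mTEC and control cTEC. Dsg1a had 232, 175 and 189.7 CPM in control mTEC, against 4.32, 4.88 and 3.57 CPM in control cTEC (log2 5.55 ± 0.22 (SE), adjusted p = 1.72e-13). Dsg1b was higher by log2 5.76 ± 0.31 (SE), adjusted p = 1.04e-11. Dsg1a, Dsg1b and Dsg1c are related copies, and how reads matching several copies were treated is not given in the sources used here, so the division of counts among them is uncertain. Dsg3 and Dsg4, the partners of stratified and hair epithelium, were also higher, with log2 1.46 ± 0.35 (SE), adjusted p = 0.00135 for Dsg3 and log2 2.62 ± 0.40 (SE), adjusted p = 1.65e-05 for Dsg4. The desmosome cluster and Cdh2 form a run of 10 members with no other protein-coding gene between them on chromosome 18. In this run 7 were higher, Dsc3 was lower and 2 were not called, where 29.3% of all genes were higher and 30% lower.

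Of the genes of the desmosomal plaque, some were called between the control groups and others were not. Jup (plakoglobin, log2 -0.30 ± 0.13 (SE), adjusted p = 0.0539), Dsp (desmoplakin, log2 -0.20 ± 0.15 (SE), adjusted p = 0.246) and Pkp3 (log2 -0.02 ± 0.11 (SE), adjusted p = 0.879) were not called between the control groups. Pkp1, the plakophilin of stratified epithelium, had 389, 303 and 312 CPM in control mTEC, against 204, 152 and 116 CPM in control cTEC (log2 1.09 ± 0.16 (SE), adjusted p = 9.01e-06). Pkp2 was higher by log2 1.44 ± 0.27 (SE), adjusted p = 0.000169. Between the Cre groups Jup was lower in Cre mTEC than in Cre cTEC (log2 -0.76 ± 0.13 (SE), adjusted p = 7.69e-05), and so was Dsp (log2 -0.53 ± 0.15 (SE), adjusted p = 0.00624). Whether these differences changed with genotype is given by the difference of effects, which was not called for Jup (log2 0.46 ± 0.18 (SE), adjusted p = 0.202) or for Dsp (log2 0.32 ± 0.21 (SE), adjusted p = 0.494).

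**Figure D3:**
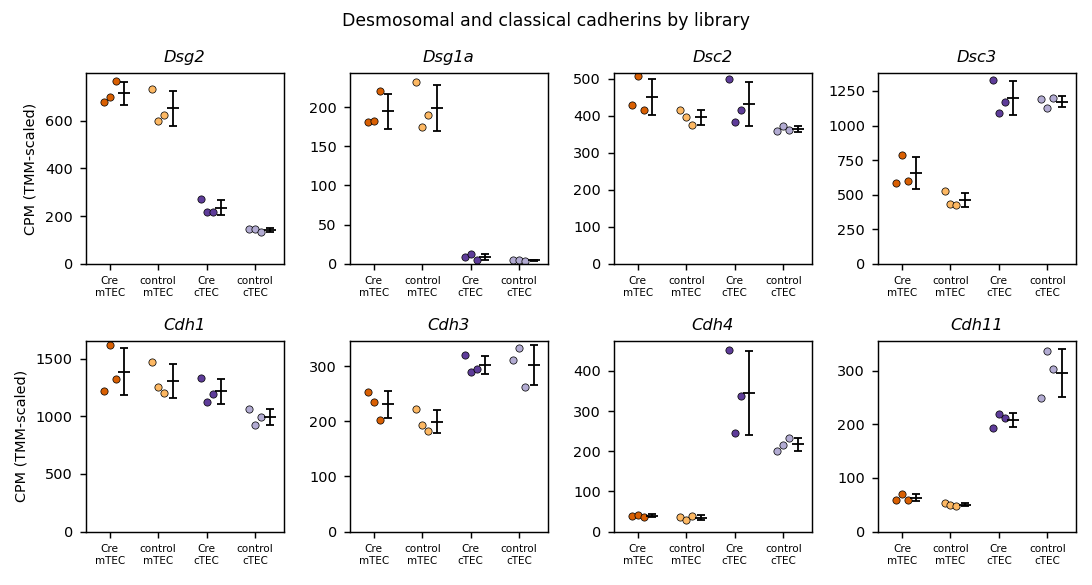
TMM-scaled CPM of 8 desmosomal and classical cadherins in each of the 12 libraries, with the mean and SD of 3 libraries beside each group; every axis starts at 0. Dsg2 and Dsg1a are high in both mTEC groups, Dsc3, Cdh3, Cdh4 and Cdh11 in both cTEC groups, and Cdh1 and Dsc2 are present in all 4.

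Beta connexins and Epcam completed the medullary side. Gjb2 had 81.7, 115 and 169.6 CPM in Cre mTEC and 139.9, 122 and 134 CPM in control mTEC, and 12.3, 6.8 and 10.5 CPM in Cre cTEC and 13.1, 18.8 and 16.8 CPM in control cTEC. Gjb2, a connexin of skin and inner ear, was 8.1-fold higher in control mTEC (log2 3.02 ± 0.22 (SE), adjusted p = 8.4e-10), with no overlap between the control groups. Per kilobase it made 69.9% of the beta connexin level in Cre mTEC and 70.5% in control mTEC, and 29.5% in Cre cTEC and 39.3% in control cTEC. Gjb6, its partner in the inner ear, was higher by log2 0.93 ± 0.20 (SE), adjusted p = 0.000596. Epcam had 962, 828 and 815 CPM in Cre mTEC and 928, 888 and 907 CPM in control mTEC, and 607, 529 and 579.8 CPM in Cre cTEC and 488, 619 and 589.7 CPM in control cTEC. Epcam was 1.6-fold higher in control mTEC (log2 0.68 ± 0.12 (SE), adjusted p = 8.29e-05). The protein is often used to sort thymic epithelium, and the gate used here is not given in the sources used here, so this difference and the sort cannot be told apart.

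Genotype moved fewer members than cell type did. In Cre cTEC against control cTEC, 9 of 63 members (14.3%) were called, 6 higher and 3 lower, against a background of 9.01% of all genes, 5.62% higher and 3.38% lower. In Cre mTEC against control mTEC only Cdh10 was called (1.59% of members), against a background of 2.07%. Averaged over both cell types 9 members (14.3%) were called, 3 higher and 6 lower, against a background of 7.21%. The median log2 fold change of the members was -0.02 in cTEC and -0.12 in mTEC, and that of all genes was -0.02 and 0.01. The effect in cTEC minus that in mTEC was called for 2 members (3.17%), Tjp1 and Cdh11, against a background of 4.01%. Genotype groups did not overlap for 19 of 63 members in cTEC, against 20.4% of all genes, and for 28 of 63 in mTEC, against 24.4%. These counts rested on single libraries: in cTEC the count was 16 without Cre cTEC library 11, 4 without Cre cTEC library 10, 5 without control cTEC library 7 and 6 without control cTEC library 8. In mTEC it was 9 without Cre mTEC library 6 and 0 without any one of the other 5. The averaged count was 4 without control mTEC library 3 or Cre mTEC library 5, 5 without control cTEC library 8 or 9, and 14 without Cre cTEC library 11. For the difference of effects the count was 1 without control mTEC library 1, 3 without control cTEC library 8 or Cre cTEC library 10, 4 without Cre cTEC library 12, 5 without Cre mTEC library 6 and 11 without Cre cTEC library 11.

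**Figure D4:**
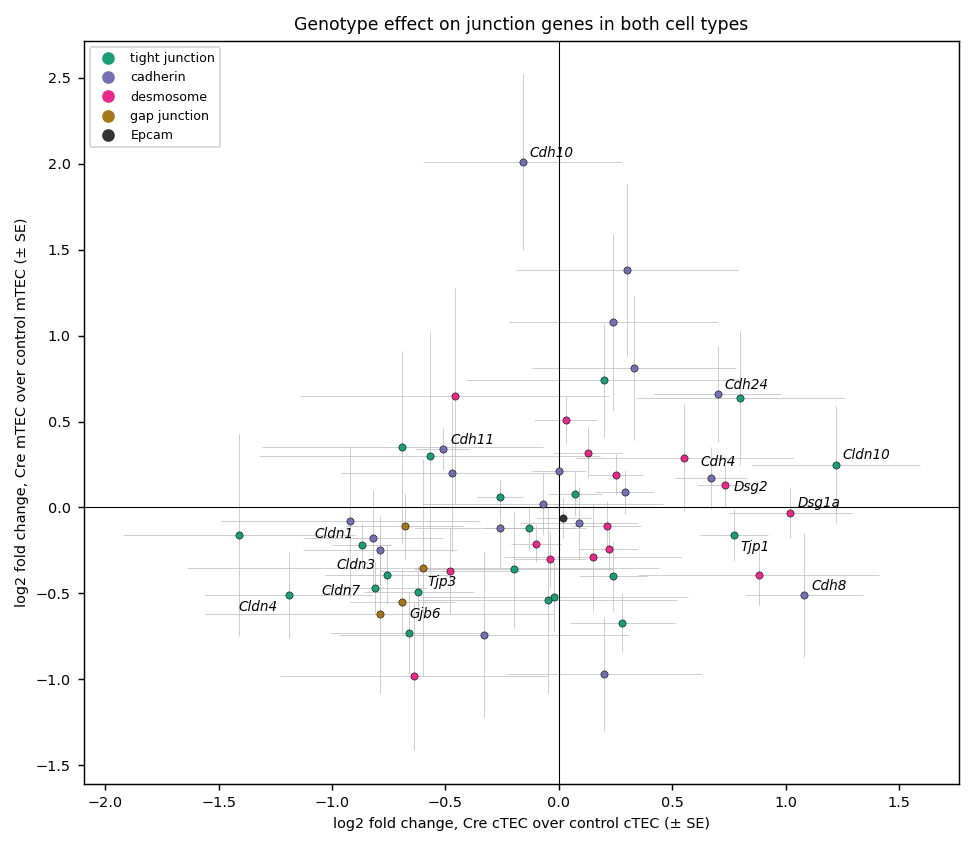
Log2 fold change (± SE) of tested junction genes in Cre over control, in cTEC on the horizontal axis and in mTEC on the vertical axis, with 3 libraries per group; named genes were called in at least 1 genotype comparison. Cldn1, Cldn3, Cldn4, Cldn7, Tjp3 and Gjb6 lie below 0 on both axes, and Cdh10 stands alone at the top.

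Cldn1 had the lowest p of all members between Cre cTEC and control cTEC. It had 145, 148 and 130 CPM in Cre cTEC, against 320.2, 217 and 236 CPM in control cTEC, a 1.82-fold lower level (log2 -0.87 ± 0.13 (SE), adjusted p = 0.000328). No Cre cTEC library reached the lowest control cTEC library. In mTEC it had 153, 166 and 130.4 CPM in Cre and 186, 168 and 169.9 CPM in control libraries (log2 -0.22 ± 0.13 (SE), adjusted p = 0.482). The cTEC call held in all 13 alternatives run, with log2 fold changes from -0.98 to -0.68 when single libraries were left out. The difference between its effects in the cell types was not called (log2 -0.64 ± 0.19 (SE), adjusted p = 0.0648), but 5 of 18 alternatives called it.

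Cldn7 was the other claudin lower in Cre cTEC, with 4.47, 7.19 and 5.41 CPM in Cre cTEC, against 10.6, 11.3 and 7.42 CPM in control cTEC (log2 -0.81 ± 0.23 (SE), adjusted p = 0.0361). Leaving out library 7, 8, 10 or 12 ended that call (adjusted p up to 0.187), and so did voom and a fit of only the 6 cTEC libraries (up to 0.12). In mTEC its log2 fold change was -0.47 ± 0.15 (SE), adjusted p = 0.111, with all 3 Cre libraries below all 3 control libraries. Averaged over both cell types Cldn7 fell by 0.64 ± 0.14 (SE) on the log2 scale (adjusted p = 0.00733), and this held in all 18 alternatives. Cldn10, a pore-forming claudin at low level, was higher in Cre cTEC, with 3.46, 2.53 and 5.12 CPM in Cre cTEC, against 1.38, 1.51 and 1.86 CPM in control cTEC (log2 1.22 ± 0.37 (SE), adjusted p = 0.0475), and leaving out any one of libraries 7, 8, 9, 10 and 12 ended the call (adjusted p up to 0.232), as did the fit of only the 6 cTEC libraries (0.12).

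Averaged over both cell types, 5 of 22 tested tight junction genes were lower and 0 higher, where 3.61% of all genes were lower and 3.6% higher. Beside Cldn1 (log2 -0.55 ± 0.09 (SE), adjusted p = 0.00136) and Cldn7 these were Tjp3 (log2 -0.55 ± 0.14 (SE), adjusted p = 0.0235), Cldn4 (log2 -0.85 ± 0.22 (SE), adjusted p = 0.0245) and Cldn3 (log2 -0.57 ± 0.16 (SE), adjusted p = 0.0329). The last 3 rested on single libraries: the call of Tjp3 ended when 3, 5, 8, 9 or 10 was left out (adjusted p up to 0.0835), that of Cldn4 when 3, 5, 8 or 12 was (up to 0.104), and also with DESeq2 or the robust fit (up to 0.132), and that of Cldn3 when 2, 3, 4, 5, 7, 8, 11 or 12 was (up to 0.12). Cldn4 ran from -1.02 to -0.47 across these fits, the smallest without control cTEC library 8, its highest cTEC library. Neither Cldn4 nor Cldn3 was called in cTEC alone (Cldn4 log2 -1.19 ± 0.37 (SE), adjusted p = 0.0504, and Cldn3 log2 -0.76 ± 0.27 (SE), adjusted p = 0.0931). Of 13 alternatives, 5 called Cldn4 and 2 called Cldn3 in cTEC.

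Marker sums differed between the genotypes as well. The 7 mTEC markers summed to 1270 to 1472 CPM in Cre cTEC and 2290 to 2613 CPM in control cTEC, with Krt5 (log2 fold change -0.79, adjusted p = 0.001) and Krt14 (-1.15, adjusted p = 1.25e-05) lower, and Fezf2 (0.76, adjusted p = 0.00461) and Tnfrsf11a (0.83, adjusted p = 0.000956) higher, of 6 tested. In mTEC none of the 6 was called by genotype with edgeR. The 6 cTEC markers summed to 6084 to 14220 CPM in Cre cTEC and 5462 to 6960 CPM in control cTEC, with 4 higher. In mTEC the 6 markers of keratinised medullary cells summed to 77.0 to 106 CPM in Cre and 173 to 216 CPM in control libraries, with 4 lower. Their part in the claudin differences was not tested.

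**Figure D5:**
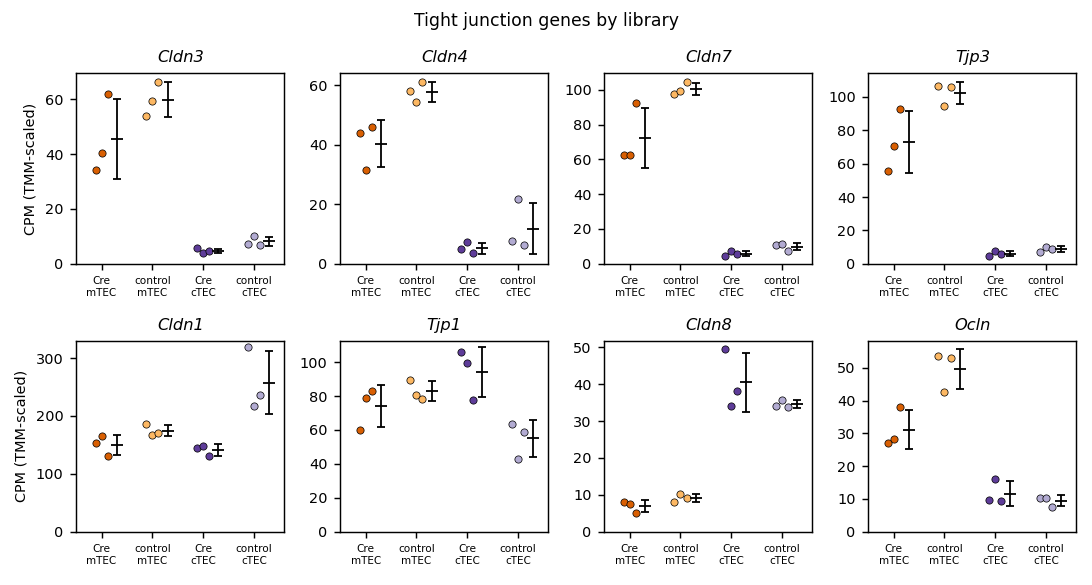
TMM-scaled CPM of 8 tight junction genes in each of the 12 libraries, with the mean and SD of 3 libraries beside each group; every axis starts at 0. Cldn7, Cldn3, Cldn4, Tjp3 and Ocln are high in both mTEC groups, Cldn8 is high in both cTEC groups, and the 3 Cre cTEC libraries of Cldn1 lie below the 3 control cTEC libraries.

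The scaffold Tjp1 rose in Cre cTEC, with 106, 99.5 and 77.6 CPM in Cre cTEC, against 63.5, 42.9 and 59.1 CPM in control cTEC (log2 0.77 ± 0.15 (SE), adjusted p = 0.00236), and no library of one group overlapped the other. In mTEC it had 60.2, 79.1 and 83.1 CPM in Cre and 89.5, 80.8 and 78.3 CPM in control libraries (log2 -0.16 ± 0.15 (SE), adjusted p = 0.697). The cTEC call held in all 13 alternatives. The 2 effects differed by log2 0.94 ± 0.21 (SE), adjusted p = 0.016, a call that was lost without control mTEC library 1 (adjusted p = 0.0546). Ocln in mTEC came close to the threshold, with 27.1, 28.3 and 37.9 CPM in Cre mTEC and 53.5, 42.8 and 52.9 CPM in control mTEC (log2 -0.67 ± 0.17 (SE), adjusted p = 0.0501). It was not called in the main fit and was called in 7 of 13 alternatives. Tjp3 was not called in mTEC either (log2 -0.49 ± 0.15 (SE), adjusted p = 0.113), although its 3 Cre mTEC libraries lay below the 3 control mTEC libraries.

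Among desmosome genes, Dsg2 rose in Cre cTEC. It had 270, 218 and 219 CPM in Cre cTEC, against 147, 147 and 134 CPM in control cTEC, a 1.66-fold difference with no overlap (log2 0.73 ± 0.12 (SE), adjusted p = 0.000664) that held in all 13 alternatives. In mTEC, where Dsg2 was more abundant, the log2 fold change was 0.13 ± 0.12 (SE), adjusted p = 0.683, and the difference of effects was not called (log2 0.59 ± 0.17 (SE), adjusted p = 0.0583). That difference was called in 6 of 18 alternatives. Dsg1a had 9.16, 12.1 and 5.12 CPM in Cre cTEC, against 4.32, 4.88 and 3.57 CPM in control cTEC (log2 1.02 ± 0.27 (SE), adjusted p = 0.0215), and was not called when 7, 9, 10 or 11 was left out (adjusted p up to 0.11), nor with voom or with only the 6 cTEC libraries (adjusted p up to 0.34, log2 fold change down to 0.52). Dsc3 in mTEC had 581, 787 and 598 CPM in Cre mTEC and 523, 434 and 428 CPM in control mTEC, with no overlap and no call (log2 0.51 ± 0.14 (SE), adjusted p = 0.0603). It was called in 6 of 13 alternatives. Of 15 desmosome genes tested in cTEC, 13 were not called, Jup (log2 0.22 ± 0.13 (SE), adjusted p = 0.409) and Dsp (log2 0.21 ± 0.15 (SE), adjusted p = 0.513) among them.

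Of the cadherins, Cdh11 fell and Cdh4 and Cdh8 rose in Cre cTEC. Cdh11 had 193, 219 and 211 CPM in Cre cTEC, against 248, 336 and 303 CPM in control cTEC (log2 -0.51 ± 0.12 (SE), adjusted p = 0.00709), and 58.9, 70.3 and 59.6 CPM in Cre mTEC, against 52.8, 48.8 and 47.8 CPM in control mTEC (log2 0.34 ± 0.12 (SE), adjusted p = 0.184). The effects in the 2 cell types differed by log2 -0.85 ± 0.17 (SE), adjusted p = 0.00788, a call kept in all 18 alternatives, while the cTEC call alone was lost without control cTEC library 8 (adjusted p = 0.0503). Cdh4 had 453, 244 and 338 CPM in Cre cTEC, against 201, 217 and 232 CPM in control cTEC (log2 0.67 ± 0.16 (SE), adjusted p = 0.0116). Cdh8 had 52.8, 22 and 41.7 CPM in Cre cTEC, against 11.1, 21.7 and 22.8 CPM in control cTEC (log2 1.08 ± 0.26 (SE), adjusted p = 0.0121), with 1 Cre library inside the control range. Library 10 was the highest for both, and without library 7 or 10 both calls were lost (adjusted p up to 0.0769 for Cdh4 and 0.0995 for Cdh8). The summed cTEC markers were at 14220, 6084 and 10130 CPM in Cre cTEC libraries 10, 11 and 12, against 5462 to 6960 CPM in control cTEC, and their part in the Cdh4 and Cdh8 differences was not tested.

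Fibroblast markers summed to 167 to 356 CPM in Cre cTEC and 200.4 to 254 CPM in control cTEC, with 1 higher and 1 lower of 6, and their part in the cadherin differences was not tested. Cdh1 (log2 0.29 ± 0.13 (SE), adjusted p = 0.233), Cdh2 (log2 0.09 ± 0.26 (SE), adjusted p = 0.92) and Cdh3 (log2 0.00 ± 0.12 (SE), adjusted p = 1) were not called in cTEC. Cdh10, the single call in mTEC and a type II cadherin of brain, had 3.96, 3.01 and 1.9 CPM in Cre mTEC, against 0.629, 0.875 and 0.653 CPM in control mTEC (log2 2.01 ± 0.51 (SE), adjusted p = 0.0461). These are low counts, and the call was lost without any one of libraries 1 to 5 (adjusted p up to 0.234) and with DESeq2's size factors (0.051). Averaged over cell types, Cdh4 (log2 0.42 ± 0.12 (SE), adjusted p = 0.0412) and Cdh24, a type II cadherin (log2 0.68 ± 0.20 (SE), adjusted p = 0.0413), were higher, each lost without 10 of the 12 libraries in turn (adjusted p up to 0.134 and 0.113). The call of Cdh24 also ended with DESeq2 and with no filter (up to 0.0846). Dsg2 was higher (log2 0.43 ± 0.09 (SE), adjusted p = 0.00386) in all 18 alternatives.

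Gjb2 and Gjb6 were not called by genotype in either cell type. Gjb6 had 3.91, 6.41 and 4.97 CPM in Cre cTEC and 7.95, 6.73 and 9.42 CPM in control cTEC, and 8.67, 10.5 and 12.1 CPM in Cre mTEC and 14.8, 14.7 and 16.6 CPM in control mTEC, without overlap in either. Averaged over both it was lower (log2 -0.62 ± 0.15 (SE), adjusted p = 0.0137), a call lost without library 9 (adjusted p = 0.0514). Gjb2 in Cre cTEC lay below control cTEC in every library and was not called (log2 -0.68 ± 0.26 (SE), adjusted p = 0.127). Epcam did not differ detectably by genotype, with log2 0.02 ± 0.12 (SE), adjusted p = 0.973 in cTEC (95% interval -0.24 to 0.27) and log2 -0.06 ± 0.12 (SE), adjusted p = 0.88 in mTEC (95% interval -0.31 to 0.19).

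Cldn5 and Cdh5 are the claudin and the cadherin of endothelium. Cldn5 had 1.12, 0.777 and 1.17 CPM in Cre cTEC and 1.73, 3.03 and 3.57 CPM in control cTEC (log2 -1.41 ± 0.51 (SE), adjusted p = 0.102), and Cdh5 had 0.559, 1.17 and 1.02 CPM in Cre cTEC and 1.04, 1.01 and 1.43 CPM in control cTEC. Between control mTEC and control cTEC, Cldn5 was lower (log2 -1.75 ± 0.51 (SE), adjusted p = 0.00607). The 7 endothelial markers summed to 42.5 to 57.5 CPM in Cre mTEC and 54.0 to 58.9 CPM in control mTEC, and to 14.1 to 33.8 CPM in Cre cTEC and 20.7 to 35.0 CPM in control cTEC. Single markers differed: Flt1 (log2 2.46), Tek (log2 1.51) and Plvap (log2 1.23) were higher in control mTEC than in control cTEC. Pecam1, Kdr, Tie1 and Emcn were not called there. By genotype in cTEC only Plvap was called, and it was lower in Cre (log2 -1.61, adjusted p = 0.00486). The part of these markers in the Cldn5 values was not tested.

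A further 44 junction genes outside the naming rule, of which 43 were tested, were counted in the same fit. In control mTEC against control cTEC 19 were higher and 8 lower, where 29.3% of all genes were higher and 30% lower. Marveld2, which encodes tricellulin, found where several cells meet, had 37.7, 38 and 39.6 CPM in control mTEC, against 3.98, 4.2 and 3.85 CPM in control cTEC (log2 3.26 (adjusted p = 1.44e-11)). Gja4, an alpha connexin known from endothelium, had 96.2, 86 and 101 CPM in control mTEC, against 1.9, 2.52 and 2.14 CPM in control cTEC (log2 5.42 (adjusted p = 1.07e-14)). The scaffold Magi1 (log2 2.60 (adjusted p = 3.35e-11)) and the nectin Pvrl4 (log2 1.98 (adjusted p = 6.56e-10)) were higher, as were the afadin gene Mllt4 (log2 0.85 (adjusted p = 1.15e-06)), Vcl for vinculin (log2 0.81 (adjusted p = 1.5e-05)) and Ppl for periplakin (log2 0.35 (adjusted p = 0.0498); not called when 1, 3, 8 or 9 was left out, up to 0.213). Prkci, the polarity kinase, was lower (log2 -1.77 (adjusted p = 3.28e-10)), and so were the desmosomal Perp (log2 -0.65 (adjusted p = 0.00027)) and the connexin Gjc1 (log2 -0.39 (adjusted p = 0.0392); not called when 1, 3, 7, 8 or 9 was left out, up to 0.133, nor in 5 of 7 other settings, up to 0.449).

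By genotype, 5 of the 43 were higher and 3 lower in Cre cTEC, and 1 was higher and 2 were lower in Cre mTEC, where 9.01% of all genes were called in cTEC and 2.07% in mTEC. Gja4 had 8.05, 7.19 and 7.6 CPM in Cre cTEC, against 1.9, 2.52 and 2.14 CPM in control cTEC (log2 1.80 (adjusted p = 3.03e-05)), with no overlap and a call kept in all 13 alternatives. Gja1, the most widespread connexin, had 164, 174 and 174 CPM in Cre cTEC, against 292, 235 and 234 CPM in control cTEC (log2 -0.57 (adjusted p = 0.00267)), also kept in all 13. Perp was lower in Cre cTEC (log2 -0.56 (adjusted p = 0.00786); lost without library 7, adjusted p = 0.0577), and Marveld3 was lower (log2 -0.71 (adjusted p = 0.0202); lost without 7, 9, 10 or 12, up to 0.133, and with only the 6 cTEC libraries, 0.085). Plekha7 (log2 0.63 (adjusted p = 0.00869); lost without 10, 0.057), Inadl (log2 0.52 (adjusted p = 0.0174); lost without 7, 9 or 10, up to 0.105), Magi1 (log2 0.56 (adjusted p = 0.0338); lost without 7 to 11, up to 0.141, and with voom or only the 6 cTEC libraries, up to 0.314, with log2 down to 0.30) and Mllt4 (log2 0.36 (adjusted p = 0.0416); lost without 7, 8, 9, 10 or 12, up to 0.192, and with no filter, 0.0861), which organise adherens and tight junction plaques, were higher.

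In Cre mTEC, Marveld2 had 22.7, 23 and 31.7 CPM, against 37.7, 38 and 39.6 CPM in control mTEC (log2 -0.57 (adjusted p = 0.0416)), a call lost without any one of libraries 1 to 5 (up to 0.255). Pvrl4 was lower as well (log2 -0.58 (adjusted p = 0.0226)), lost without 1, 3, 4 or 5 (up to 0.139). Gjc1 was higher, with 18.3, 16.4 and 15.8 CPM in Cre mTEC, against 9.25, 10.8 and 8.89 CPM in control mTEC (log2 0.80 (adjusted p = 0.00862)), lost without 1, 3 or 4 (up to 0.0702).

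Of 16 regulators of epithelial junction genes, 14 were tested, and 7 were higher and 5 lower in control mTEC against control cTEC, where 59.2% of all genes were called, 29.3% higher and 30% lower. Grhl3 (log2 3.17 (adjusted p = 6.97e-10)), Ovol1 (log2 2.18 (adjusted p = 2.7e-08)) and Elf3 (log2 1.60 (adjusted p = 4.94e-08)), epithelial factors of differentiation, were among the higher ones. Other regulators had lower means in control mTEC than in control cTEC. Grhl2 averaged 78.9 CPM in control mTEC and 136 CPM in control cTEC, and Trp63 614 and 1351 CPM. Snai2 averaged 136 CPM in control mTEC and 211 CPM in control cTEC, and Zeb2 4.38 and 9.06 CPM. By genotype 0 were called in cTEC by edgeR, where voom called 2, and in mTEC Ovol1 had 9.89, 8.28 and 11.7 CPM in Cre, against 18.3, 14.8 and 18.6 CPM in control libraries (log2 -0.79 (adjusted p = 0.0275)), and Grhl1 had 35.6, 21.8 and 32.6 CPM in Cre, against 46.7, 44.1 and 47.3 CPM in control libraries (log2 -0.62 (adjusted p = 0.046)). Both calls were lost without any one of 4 libraries (adjusted p up to 0.182 for Ovol1 and 0.294 for Grhl1).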

How the data were processed

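Raw counts of reads for each gene symbol were deposited by the authors in a single table of 12 libraries. Per the labels' protocols, sorted cells were lysed directly, and the SMARTer Low Input kit, which does not mark strand, was used for the libraries. Reads from overlapping genes on opposite strands therefore cannot be told apart: 3.99% of the Dsg2 exon bases are shared with Gm16090 and all of Cldn22 with Wwc2 in GENCODE M21 (GRCm38). Per the submitters' processing notes, the build was mm9 and the tools were edgeR, HTSeq and STAR, with versions, annotation and multi-mapping rule not given in the sources used here. As the builds differ, that annotation served only for lengths, found for 71 members, and neighbours. Promoters are from RefSeq (GRCm38.p6).

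The members, the lists of other junction genes, regulators and markers, and the tests were chosen with earlier results of these data known. The counts were fitted with edgeR 4.0.16 in R 4.3.3: TMM scaling, filterByExpr by group (17268 of 31332 genes kept), 12 libraries in 1 fit of 4 group means with 8 residual degrees of freedom, the two-sided quasi-likelihood test, and Benjamini-Hochberg adjustment over all genes kept, with a threshold of 0.05. Adjusted p-values in the text come from that test. A positive log2 fold change means higher in Cre than in control, or in mTEC than in cTEC. For the difference of effects, the effect of genotype in mTEC was subtracted from that in cTEC. CPM values were computed from the deposited counts, and 1 count was worth 0.0898 to 0.194 CPM. Counts of replicate libraries differed by more than sampling noise (chi-square per degree of freedom 3.23 to 12.4), so each library was counted once.

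The same results were computed with voom and sample quality weights in limma 3.58.1, with DESeq2 1.42.0, with its size factors in edgeR, with robust dispersions, without a filter, with at least 5 CPM required in 3 libraries, with a fit to the 6 libraries of a comparison alone, and leaving out each library. On counts simulated for Cre cTEC against control cTEC (16648 genes), the changed genes were drawn from those with a mean of at least 5 CPM. The test recovered 89 of 100 changes of 2-fold and 52 of 100 of 1.5-fold, with 6 calls among unchanged genes. Recovery for genes below that level was not measured. Genes were named by a rule: 22 fixed members, every member called by genotype (at least the 5 with the lowest p in each genotype comparison), the 12 largest called folds in each direction between control mTEC and control cTEC with a mean of at least 5 CPM and no overlap, up to 3 per list and comparison, and Cldn5 and Cdh5. Cldn2, Cldn6, Cldn23, Cdh12, Grhl2, Trp63, Snai2 and Zeb2 were named after their values were seen. Some members are counted but not reported one by one here.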

Additional observations from a re-analysis of the deposited data

Results flagged for a closer look

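The genotype effects of 2 junction genes differed between the cell types by edgeR's test of the difference itself. They were 3.17% of the tested members, where 4.01% of all genes tested were called. Cdh11 was lower in Cre than in control cTEC and had a positive log2 fold change in mTEC, and the effects differed by -0.85 on the log2 scale (adjusted p = 0.00788). Tjp1 was higher in Cre than in control cTEC and had a negative log2 fold change in mTEC, and the effects differed by 0.94 (adjusted p = 0.016). The difference for Tjp1 was not called without control mTEC library 1 (adjusted p = 0.0546), and neither gene was called in mTEC alone.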

How the results depend on the processing

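Of the values of named genes recomputed under other settings, 3565 kept their side of the threshold, 137 lost a call and 130 gained one. Some results given above as not called were among those that gained one. In 0 did the direction change where either fit made a call. Values called in neither fit could change direction, as Dsg3 did in Cre cTEC against control cTEC (log2 -0.43 to 0.57). Counts moved more. Members called in Cre cTEC against control cTEC (9) became 16 with voom and 14 with no filter, and ran from 4 to 16 with single libraries left out. In Cre mTEC against control mTEC (1) they became 3 with DESeq2, 14 with voom, 3 with the robust fit, 6 with no filter and 5 with only the 6 libraries compared, and ran from 0 to 9. The average over both cell types (9) gave 17 with voom and 15 with no filter, and ran from 4 to 14. The difference of effects (2) gave 4 with DESeq2's size factors, 9 with DESeq2, 10 with voom, 7 with no filter and 5 with the filter of 5 CPM, and ran from 1 to 11. Control mTEC against control cTEC (47) ran from 45 to 47, and Cre mTEC against Cre cTEC (40) from 37 to 46. Other junction genes ran from 3 to 8 in cTEC by genotype (8) and from 22 to 26 between the control groups (27). In mTEC by genotype (3) they gave 9 with voom, 5 with no filter, 5 with the filter of 5 CPM and 7 with only the 6 libraries, and ran from 0 to 3. Regulators gave 2 with voom and 1 with no filter in cTEC by genotype (0), running from 0 to 1, gave 5 with voom in mTEC by genotype (2), running from 0 to 3, and ran from 11 to 12 between the control groups (12). The cause of these changes was not tested. DESeq2's size factors shifted the median of all genes by at most 0.056 on the log2 scale. No paired analysis was possible because every library has a number of its own, 1 to 12. Depth limits members at a few counts per library, such as Cdh10, Cldn10 and Cldn13.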
